A study of Mus musculus with 6 samples.

Results

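The genes that make, carry, sense and degrade retinoic acid were followed in E14 embryonic submandibular glands (eSMGs) of ICR mice after AMD3100, an antagonist of the chemokine receptor CXCR4. The set was chosen by symbol and holds 9 of the 23260 genes in the count files: Aldh1a2, Aldh1a3, Stra6, Crabp1, Crabp2, Cyp26b1, Rara, Rarb and Rarg. Every one of the 9 passed the filter on low counts, as did 13610 genes in all. Whole eSMGs, up to 10 per tube, were cultured for 6 h without AMD3100 (control, 3 tubes) or with 50 µM AMD3100 (3 tubes), so each library pools glands and mixes epithelium, mesenchyme, nerve and blood. Neither group carries a transgene or mutation, and the text of the study names no vehicle for the control. The libraries were made from the 3′ end of each mRNA and held between 9051595 and 14393031 counts, of which 1638 to 5785 fell on the 9 genes. A level of 3 counts, used as the floor, stood at 0.208 to 0.331 CPM (counts scaled to a library of 1e6), and every one of the 9 was above it in every library. Since nothing in the labels ties tubes to litters, p-values measure the spread between tubes, which may be technical.

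Retinoic acid is made in cells from retinol, the alcohol form of vitamin A. STRA6 takes retinol up from its carrier in blood, retinaldehyde dehydrogenases such as ALDH1A2 and ALDH1A3 perform the last, irreversible step of synthesis, and CRABP1 and CRABP2 bind the product in the cytoplasm. CRABP2 hands it to the nuclear receptors RARα, RARβ and RARγ, which sit on DNA as partners of the RXR proteins, whereas CYP26B1 oxidizes it for removal. Retinoic acid signalling is known to be needed for the start and branching of the submandibular gland, and several genes of the pathway, Rarb and Cyp26a1 among them, are direct targets of the receptors.

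A promoter of Rarb is shown because it holds the textbook retinoic acid response element through which the gene is induced by its own ligand. Reads from the 3′ end do not show which start a transcript came from, so the level of Rarb cannot be tied to this promoter. The element is a direct repeat of a receptor half-site with 5 bases between the copies, called DR5. AGGTCA was searched as the half-site, as were its variants with A or G as the first and G or T as the third base. The 250 bases before 1 RefSeq start of Rarb on GRCm38.p6 (chr14:16575477-16575726, minus strand, written 5′ to 3′ along the gene) are given with the element in capitals. They come from the reference strain and not from the ICR mice used here. This start lies inside the gene, whose span on the minus strand begins at 17082331, so it is not the first start of Rarb.
Rarb promoter: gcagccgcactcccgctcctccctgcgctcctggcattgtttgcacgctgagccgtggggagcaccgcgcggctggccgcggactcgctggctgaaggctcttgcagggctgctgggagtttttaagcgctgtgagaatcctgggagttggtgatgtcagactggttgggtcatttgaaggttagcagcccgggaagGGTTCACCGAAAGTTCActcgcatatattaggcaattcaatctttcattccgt
The element lies 53 to 37 bases before that start. Both strands of 32851 RefSeq promoter windows of the same length (250 bases before to 50 after a start) were searched, and 32 windows (0.0974%) held a DR5, of 31 genes. Of the 14 windows found for 7 of the 9 retinoic acid genes, only that of Rarb held one. Such a match is a description of the letters, and binding was not measured. Aldh1a3 and Crabp2 had no window in the table. A repeat with 2 bases between the same half-sites (DR2) was in 0.268% of all windows and in 0 of the 14. The DR5 of Rarb is set beside that of Cyp26a1, which encodes another retinoic acid hydroxylase, with the half-sites in capitals. The element of Rarb is written along its gene, and that of Cyp26a1 on the strand opposite to its gene.
Rarb element: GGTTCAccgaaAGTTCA
Cyp26a1 element: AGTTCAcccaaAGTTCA
Rarb was read in every library. Cyp26a1, by contrast, had 0, 0 and 0 reads among the controls and 7, 0 and 0 after AMD3100. Of this pair of genes with a DR5, only Rarb could be compared, and only as a whole gene. Of the 31 genes, 12 were in the count files and 4 passed the filter: Rarb, Blvrb, Hbb-y and Syndig1. Their log2 fold changes (AMD3100 over control, edgeR) were -0.0085, 0.09, -0.10 and 0.32, all with overlapping groups.

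AMD3100-treated and control eSMGs were compared with edgeR's quasi-likelihood test over all 13610 genes, after TMM normalization. None of the 9 retinoic acid genes passed the test at an adjusted p-value of 0.05, and none had an unadjusted p-value under 0.05. Across all genes, 0% had an adjusted and 1.68% an unadjusted p-value under 0.05. DESeq2 called 0 of the 9 at an unadjusted p-value of 0.05 as well, and 5 genes of all at an adjusted one. The log2 fold changes of the 9 genes ran from -0.26 (Aldh1a2) to -0.0085 (Rarb), with unadjusted p-values from 0.539 to 0.988 in edgeR's test and with every adjusted p-value at 1.0. Their median was -0.056, beside 0.021 over all genes tested. For every one of the 9, the libraries of both groups overlapped, whereas the groups did not overlap for 7.44% of all genes. An exact two-sided permutation test over the libraries gave p-values from 0.400 to 1.0 (n = 3 each), where 0.1 is the smallest that 3 against 3 allows.

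**Figure D1:**
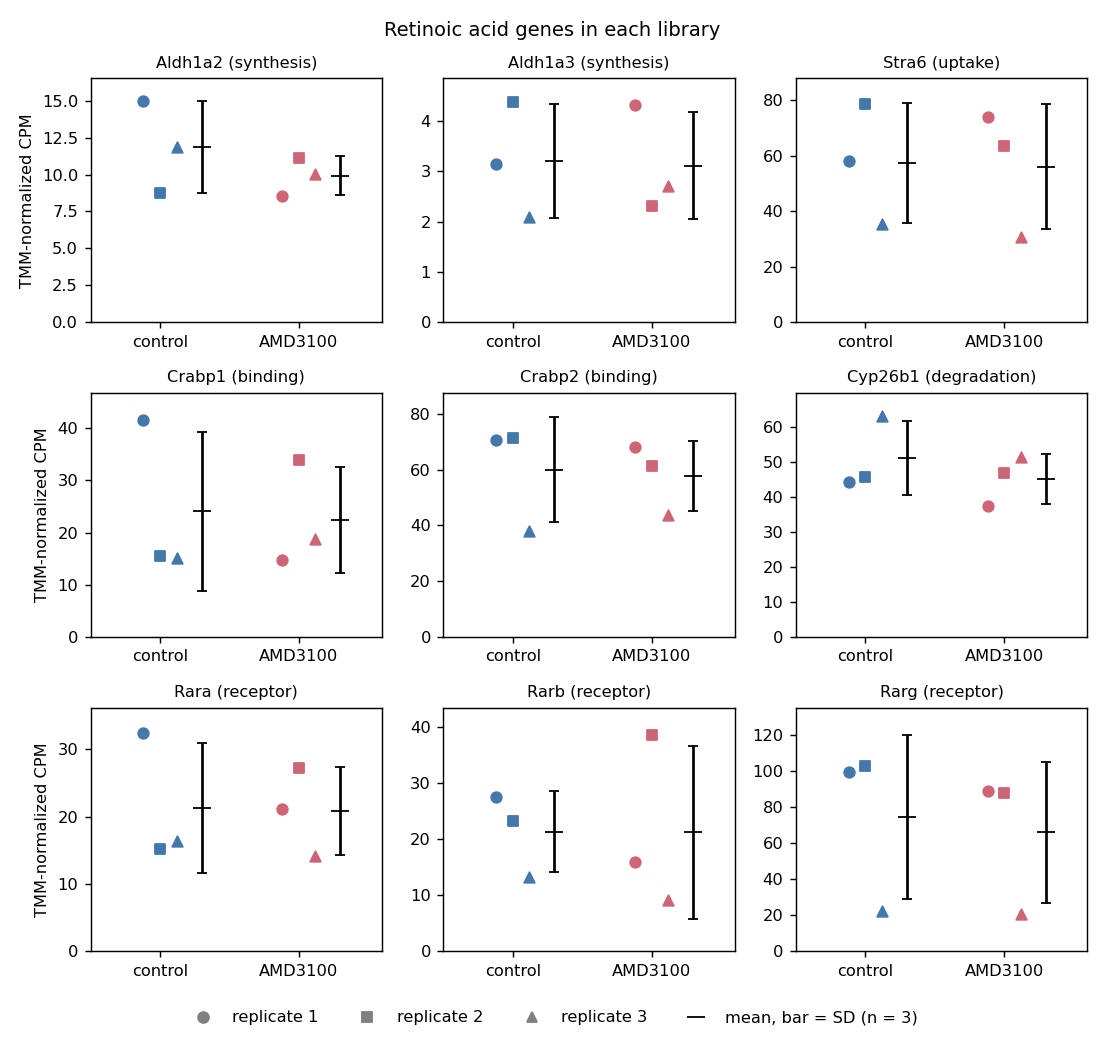
TMM-normalized CPM of each gene in each library (circle, square and triangle for replicates 1, 2 and 3), with the group mean and SD (n = 3) beside the points. Control and AMD3100 overlap in every panel, and both replicate 3 libraries of Rarg, at 22.2 and 20.9 CPM, lie far below the 4 others.

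Both enzymes of synthesis had few reads. Aldh1a2, the main retinaldehyde dehydrogenase of the early embryo, lies on chromosome 9 from 71215789 to 71296243 (GRCm38.p6, as for all positions). It was at 14.97, 8.74 and 11.9 CPM in control and 8.53, 11.2 and 10.1 CPM in AMD3100-treated eSMGs. Control replicate 1 was the highest of the 6 libraries, while the others lay between 8.53 and 11.9 CPM in both groups. The means were 11.9 ± 3.12 in control and 9.92 ± 1.32 CPM in AMD3100 (mean and SD, n = 3 tubes each), which made a log2 fold change of -0.26 (95% interval -1.18 to 0.66). The AMD3100 tube was the lower in 2 of 3 pairs of like replicate number. Aldh1a3, which makes retinoic acid chiefly in ectodermal tissues such as the eye and nose, lies on chromosome 7 from 66390892 to 66427477. It was at 3.15, 4.37 and 2.09 CPM in control and 4.32, 2.30 and 2.70 CPM in AMD3100-treated eSMGs, from 239 counts over all 6 libraries. The highest library of each group was at 4.37 and 4.32 CPM. Its log2 fold change of -0.042 had the widest interval of the 9, from -1.83 to 1.74, so that levels from 0.282 to 3.34 times that of the control could not be told from no difference.

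Stra6, the receptor for retinol uptake and itself a known target of retinoic acid, lies on chromosome 9 from 58063793 to 58154004. It was at 58.05, 78.5 and 35.3 CPM in control and 73.96, 63.4 and 30.7 CPM in AMD3100-treated eSMGs. Both replicate 3 libraries were the lowest, and the 4 others overlapped between the groups. The means of 57.3 ± 21.6 in control and 56.03 ± 22.6 CPM in AMD3100 (mean and SD, n = 3 tubes each) gave a log2 fold change of -0.031 (95% interval -0.98 to 0.92). Cyp26b1, the enzyme that removes retinoic acid, lies on chromosome 6 from 84571414 to 84593908. It was at 44.3, 45.7 and 63.1 CPM in control and 37.3, 46.7 and 51.2 CPM in AMD3100-treated eSMGs. Here both replicate 3 libraries were the highest, the opposite of Stra6. Cyp26b1 varied least between libraries, by 1.69-fold from the lowest to the highest, and had the narrowest interval of the 9. Its log2 fold change was -0.18 (standard error 0.293), with an interval from -0.84 to 0.48, or 0.557 to 1.40 times the control level.

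The binding proteins differed in how much they varied. Crabp1, which is thought to steer retinoic acid towards breakdown, lies on chromosome 9 from 54764748 to 54773110. It was at 41.7, 15.4 and 15.2 CPM in control and 14.7, 34.01 and 18.7 CPM in AMD3100-treated eSMGs. Control replicate 1 and AMD3100 replicate 2 were the highest, and the 4 other libraries lay between 14.7 and 18.7 CPM. With means of 24.1 ± 15.2 in control and 22.5 ± 10.2 CPM in AMD3100 (mean and SD, n = 3 tubes each), the log2 fold change was -0.10 (95% interval -1.25 to 1.05), and pair by pair it was -1.50, 1.14 and 0.30 for replicates 1, 2 and 3. The value lay between -0.52 without AMD3100 replicate 2 and 0.54 without control replicate 1. Crabp2, which carries retinoic acid to the receptors in the nucleus, lies on chromosome 3 from 87948693 to 87953372. It was at 70.8, 71.3 and 38.2 CPM in control and 68.3, 61.4 and 43.7 CPM in AMD3100-treated eSMGs. Replicates 1 and 2 of both groups differed by at most 1.16-fold, and both replicate 3 libraries were lower. The log2 fold change of Crabp2 was -0.056 (95% interval -0.83 to 0.72).

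Of the receptors, Rara, the most widely expressed of the family, lies on chromosome 11 from 98927800 to 98974942. It was at 32.5, 15.2 and 16.4 CPM in control and 21.1, 27.3 and 14.1 CPM in AMD3100-treated eSMGs. Control replicate 1 and AMD3100 replicate 2 were again the 2 highest, and the means of 21.4 ± 9.65 in control and 20.8 ± 6.58 CPM in AMD3100 (mean and SD, n = 3 tubes each) gave a log2 fold change of -0.034 (95% interval -1.0 to 0.93). Of 11 simulated reads of 50 bases from the 3′ end of Rara, 1 had an exact copy elsewhere in the genome, while those of the 8 other genes had none. Rarb, the receptor with the DR5 shown above, lies on chromosome 14 from 16430839 to 17082331. It was at 27.4, 23.2 and 13.3 CPM in control and 15.9, 38.5 and 9.09 CPM in AMD3100-treated eSMGs. AMD3100 held both the highest library (replicate 2) and the lowest (replicate 3), and its mean of 21.2 ± 15.4 CPM was close to the 21.3 ± 7.27 CPM of control (SD, n = 3 each). On the log2 scale the difference was -0.0085, its 95% interval ran from -1.24 to 1.23, and it lay between -0.76 without AMD3100 replicate 2 and 0.34 without AMD3100 replicate 3.

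Rarg, the receptor typical of stratified epithelia and of cartilage, lies on chromosome 15 from 102234938 to 102257522. It was at 99.4, 103 and 22.2 CPM in control and 89.2, 88.03 and 20.9 CPM in AMD3100-treated eSMGs. Replicates 1 and 2 of both groups lay within 1.17-fold of each other, and both replicate 3 libraries were far below them. The means were 74.8 ± 45.5 in control and 66.04 ± 39.1 CPM in AMD3100 (mean and SD, n = 3 tubes each), a log2 difference of -0.18 whose 95% interval ran from -1.66 to 1.31. In each of the 3 pairs of like number, the AMD3100 library was the lower for Rarg, with log2 ratios of -0.16, -0.22 and -0.091. With replicate number as a block, which takes out differences between replicate numbers, the log2 fold change was -0.16 (standard error 0.162). Its p-value in edgeR was 0.350 before and 0.891 after adjustment, and its interval narrowed to -0.52 to 0.21, or 0.695 to 1.15 times the control level.

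The pair values and the block both rest on the replicate numbers, although among replicates 1 and 2 the libraries of unlike number (correlations of 0.217 and 0.307) deviated from their group means together about as closely as those of like number (0.284 and 0.259). The replicate block called none of the 9 genes, with unadjusted p-values from 0.350 to 0.995, while it gave 6.66% of all genes an unadjusted and 0.022% an adjusted p-value under 0.05. With it, the intervals of Crabp2 (-0.43 to 0.37), Stra6 (-0.49 to 0.39) and Cyp26b1 (-0.60 to 0.25) all stayed within a log2 fold change of 0.6 on either side. Those of Aldh1a3 (-2.16 to 2.10), Crabp1 (-1.06 to 1.04) and Aldh1a2 (-1.14 to 0.67) reached beyond 0.6. So did those of Rara (-0.76 to 0.75) and, on the lower side, Rarb (-0.98 to 0.59). With replicates 1 and 2 only, the log2 fold change was -0.20 for Rarg (95% interval -0.59 to 0.20) and 0.0029 for Stra6 (95% interval -0.50 to 0.51), and again none of the 9 had an unadjusted p-value under 0.05, against 5.72% of all genes tested there.

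**Figure D2:**
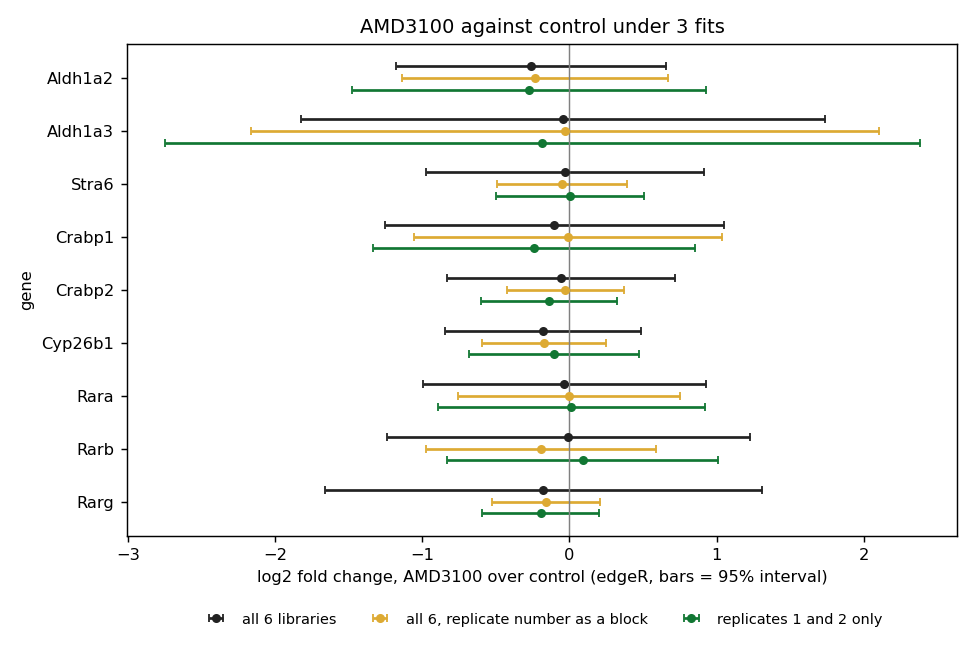
Log2 fold change of AMD3100 over control (x axis) for each gene with its 95% interval in edgeR, for all 6 libraries without a block (black), with replicate number as a block (yellow) and for replicates 1 and 2 only (green). Every interval includes 0, and that of Rarg is the one that narrows most with the block.

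In several of these genes, as in many of all genes tested, both replicate 3 libraries stood apart from the 4 others. The difference between replicate numbers was tested, after it had been seen, with both replicate terms of the blocked edgeR fit. Rarg (adjusted p = 0.000350) and Stra6 (adjusted p = 0.0225) passed this edgeR test, as did 17.8% of all genes, and Crabp2 (adjusted p = 0.0682) and Rarb (adjusted p = 0.0902) did not. The mean of the 4 other libraries was 4.40 times that of both replicate 3 libraries for Rarg, 2.35 times for Rarb, 2.08 times for Stra6 and 1.66 times for Crabp2. In these 4 genes, both replicate 3 libraries stood below all 4 others, which was so for 21.1% of all genes. In Cyp26b1 both stood above (23.1% of all genes), and in the 4 remaining genes they overlapped. These counts are a description of the 9 genes and were not tested.

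Markers of other tissues moved with replicate 3. The summed level of 6 skeletal muscle genes was 1364 to 1729 CPM in both replicate 3 libraries and 83.3 to 153 CPM in the 4 others, with all 6 genes (Myh3, Acta1, Tnnt1, Tnnc2, Myog and Myod1) higher in both. The sum of 10 mesenchyme genes was 1823 to 2150 CPM against 4377 to 4442 CPM. Of the 10, 5 were lower in both (Pdgfra, Dcn, Col1a1, Col1a2 and Col3a1), Lum was higher in both (62.1 and 64.1 CPM against 41.6 to 60.4 CPM), and Pdgfrb, Twist1, Prrx1 and Vim overlapped. The collagens Col1a1, Col1a2 and Col3a1 made up most of this sum, with Col3a1 at 406 and 415 CPM in replicate 3 and 1393 to 1421 CPM in the others, and Prrx1 at 175 and 134 CPM against 109.9 to 163 CPM. Of 10 epithelial genes, 6 were lower in both, although Krt15 was the largest part of their sum, which ran from 1492 to 3473 CPM in replicate 3 and from 2236 to 2689 CPM in the others. The sum of 5 macrophage genes was at least 149 CPM against 58.6 to 84.9 CPM, with C1qa the largest part in replicate 3. Of the 5, C1qa and Cd68 were higher in both, Adgre1 and Ptprc were lower in both, and Csf1r overlapped. Nerve, endothelial and erythroid sums overlapped between replicate 3 and the other libraries, and every marker listed had reads in at least 1 library. The markers of gland epithelium and mesenchyme were thus present, and the part of tissue make-up in the levels of Rarg, Rarb, Stra6 and Crabp2 was not tested. In such bulk libraries, fewer cells of a type and less RNA per cell cannot be told apart.

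Between control and AMD3100, no marker passed edgeR's test without the block at an unadjusted p-value of 0.05, and Cdh1, an epithelial cadherin, was the 1 marker whose groups did not overlap, with 337, 302 and 211 CPM in control and 344, 394 and 507 CPM in AMD3100 (higher without overlap in 3.28% of all genes). The summed epithelial level was 1492 to 2243 CPM in control and 2343 to 3473 CPM in AMD3100. Krt15 was its largest part, and overlapped at 888 to 1042 CPM in control and 1016 to 2472 CPM in AMD3100. Of the 10 epithelial genes, 7 had a log2 fold change above 0 and 3 (Epcam, Krt8 and Sox10) had one below. The part of the epithelial level in the comparison of the 9 genes was not tested. The 6 other sums overlapped between the groups. With the replicate block, 9 markers had an unadjusted p-value under 0.05 in edgeR, as did 6.66% of all genes. None had an adjusted one. They were 3 of 10 epithelial, 1 of 10 mesenchyme, 3 of 8 erythroid and 2 of 6 muscle genes. None was a nerve, endothelial or macrophage gene. Epithelial Cdh1 (log2 fold change 0.56), Krt14 (0.40) and Krt15 (0.62) were higher in AMD3100. Mesenchymal Twist1 (-0.97), the erythroid genes Hbb-bt, Hbb-b1 and Hbb-b2 (-0.40 to -0.33) and the muscle genes Myog (-1.16) and Myod1 (-2.05) were lower. Hbb-bt and Hbb-b2 had nearly the same counts in every library, such as 10583 and 10507 in control replicate 1, so they are not separate results.

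**Figure D3:**
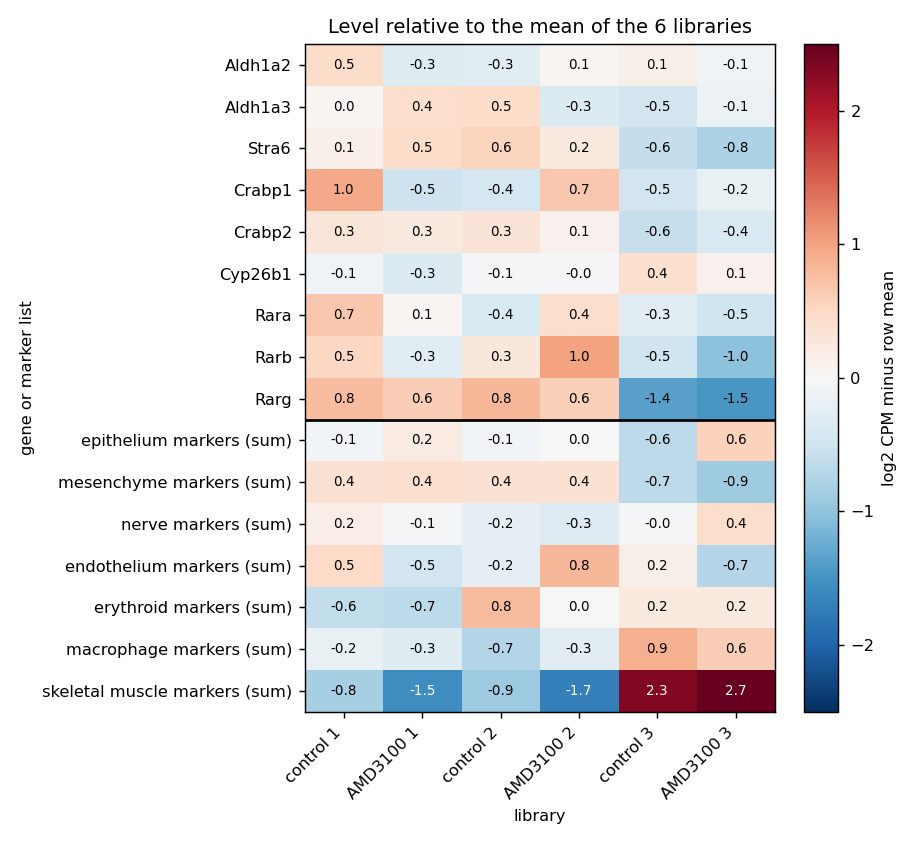
Level of each gene (top) and of each summed marker list (bottom) in each library as log2 CPM minus the mean of the row over 6 libraries, with same-numbered libraries side by side. Both replicate 3 columns are low for Rarg, Rarb, Stra6 and Crabp2, high for Cyp26b1 and high for skeletal muscle markers.

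Within each gene family, the make-up was described by the share of each gene in the family's counts. Reads of a 3′ kit come from 1 end of each transcript, so counts were not divided by length. Intervals are exact 95% binomial intervals and cover counting error only. Rarg took 62.4, 72.8 and 42.9% of the counts of the 3 receptors in control and 70.7, 57.2 and 47.4% in AMD3100 replicates 1, 2 and 3. It was the largest part in every library, and smallest in replicate 3, at 42.9% (38.6 to 47.3) and 47.4% (42.1 to 52.7). Conversely, the share of Rara was highest there, at 31.5% (27.6 to 35.7) and 32.03% (27.2 to 37.1), against 10.8 to 20.4% in the 4 others. The mean shares of control and AMD3100 differed by -0.93 percentage points for Rarg and 1.25 for Rara, less than the SD within either group.

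Crabp1 took 27.8 ± 9.64% of the counts of both binding proteins in control and 27.8 ± 9.16% in AMD3100 (SD, n = 3 each). Behind these like means, the libraries fell at 3 levels, each with 1 control and 1 AMD3100 library. Control replicate 1 and AMD3100 replicate 2 were at 37.04% (34.4 to 39.7) and 35.7% (32.7 to 38.7). Control replicate 2 and AMD3100 replicate 1 were at 17.8% (15.7 to 20.1) and 17.7% (15.8 to 19.8), and both replicate 3 libraries at 28.4% (24.6 to 32.4) and 29.9% (25.97 to 34.1). The share of Aldh1a2 in the counts of Aldh1a2 and Aldh1a3 had the same arrangement for the first 4 libraries, with 82.6% (76.7 to 87.5) and 82.9% (75.8 to 88.6) against 66.7% (59.3 to 73.5) and 66.4% (59.8 to 72.5). The mean shares of Aldh1a2 were 78.1 ± 9.97% in control and 76.03 ± 8.61% in AMD3100 (SD, n = 3 each).

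**Figure D4:**
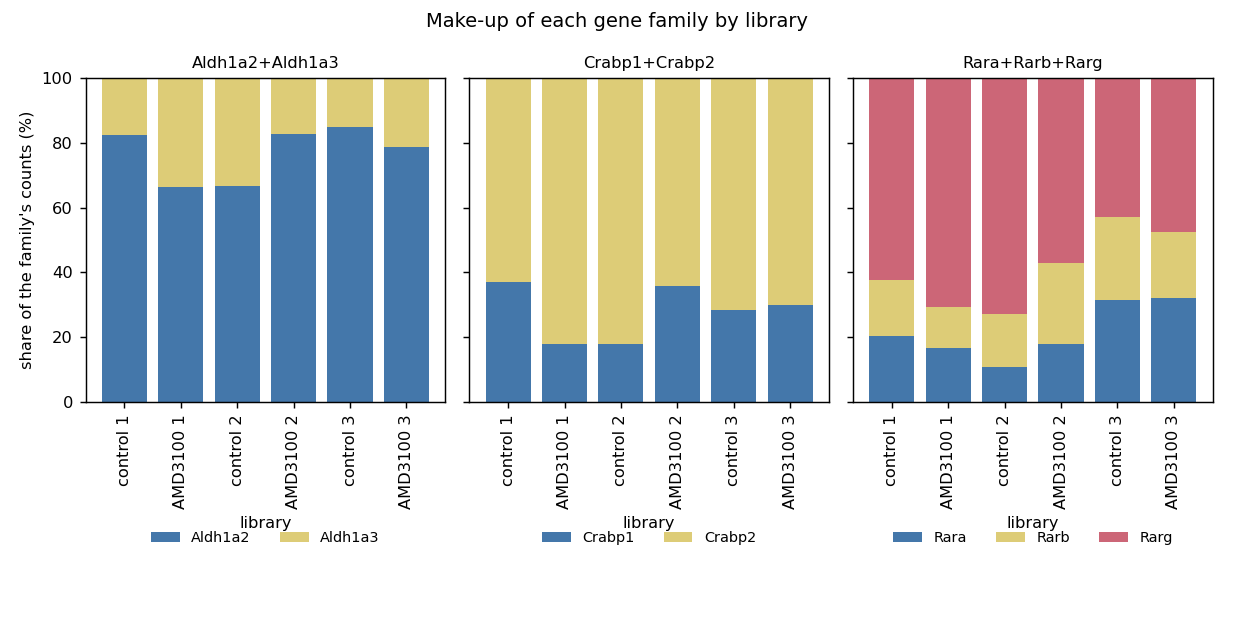
Share of each gene in the counts of its family (y axis, %) in each library, with same-numbered libraries side by side. The shares of Crabp1 and Aldh1a2 are alike in control 1 and AMD3100 2 and in AMD3100 1 and control 2, while those of Rarb are not. Rarg is the largest part of the receptors throughout.

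The wider pathway was read from 3 lists. Of 20 genes of retinoid supply and turnover, 11 passed the filter, and 0 had an unadjusted p-value under 0.05 in edgeR's test in either direction (0.397% of all genes were higher and 1.28% lower), with a median log2 fold change of -0.12. The direction of this median was not stable, since it was 0.18 with the replicate block and 0.087 with replicates 1 and 2 only. Rdh10, which performs the first step of synthesis from retinol, was at 8.94 ± 2.61 and 6.19 ± 1.27 CPM (SD, n = 3 each; log2 fold change -0.53, standard error 0.486). Dhrs3, which turns retinaldehyde back into retinol, was at 42.2 ± 21.4 and 47.5 ± 22.9 CPM (SD, n = 3 each; log2 fold change 0.17, standard error 0.504), and both replicate 3 libraries were low (20.1 and 22.7 CPM), as in Rarg. Rdh12 had the largest log2 fold change of the list, 2.11 with a standard error of 1.49, with 1 library far above the rest: 16, 16 and 0 reads among the controls and 27, 96 and 7 after AMD3100. Ttr, a blood carrier of retinol and thyroid hormone, had 0, 0 and 193 reads among the controls and 54, 0 and 84 after AMD3100. Cyp26c1 had no counts and Cyp26a1 had 7 in a single library, so that Cyp26b1 was the member of its family that could be measured.

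All 11 receptor partners and co-regulators passed the filter, with 0 at an unadjusted p-value under 0.05. Their median log2 fold change was 0.17, beside 0.021 over all genes tested. The partners Rxra and Rxrb were at 50.8 ± 21.95 and 58.3 ± 35.8 CPM (SD, n = 3 each; log2 fold change 0.20, standard error 0.484) and at 63.3 ± 17.5 and 76.6 ± 18.2 CPM (SD, n = 3 each; log2 fold change 0.28, standard error 0.320). In Rxra both replicate 3 libraries were the highest, at 73.3 and 99.5 CPM, the reverse of Rarg. The corepressor Ncor1 was at 239 ± 89.9 and 269 ± 84.9 CPM (SD, n = 3 each; log2 fold change 0.17, standard error 0.395), and Fabp5, which carries retinoic acid to PPARδ, at 206 ± 69.5 and 213 ± 25.1 CPM (SD, n = 3 each; log2 fold change 0.048, standard error 0.319). Nrip1, a corepressor known to be induced by retinoic acid, was at 15.2, 16.2 and 3.09 CPM in control and 13.7, 9.22 and 2.58 CPM in AMD3100, low in replicate 3 of both.

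Of 20 genes known to respond to retinoic acid, 13 passed the filter. None had an unadjusted p-value under 0.05, and their median log2 fold change was 0.18, with 9 above and 4 below 0. Over all 13610 genes tested, 7100 were above and 6510 below 0, with a median of 0.021. The direction of the list was not tested. Hoxd4, a homeobox gene, was the only gene of the 3 lists whose groups did not overlap, with 44, 40 and 50 reads among the controls and 11, 0 and 23 after AMD3100. Scaled to depth, each AMD3100 tube was below each control tube, as for 4.17% of all genes, but only by 2.82 CPM in AMD3100 replicate 3 against 2.91 CPM in control replicate 2. Its log2 fold change of -1.78 had a standard error of 1.37 (unadjusted p = 0.228 in edgeR). Tgm2, which encodes tissue transglutaminase, was at 40.4, 45.4 and 27.5 CPM in control and 50.8, 58.6 and 45.3 CPM in AMD3100 replicates 1, 2 and 3. Its log2 fold change was 0.45 (edgeR unadjusted p = 0.174) and 0.47 with the replicate block (edgeR unadjusted p = 0.0391, adjusted p = 0.727). Tgm2 was the 1 gene of the 3 lists with an unadjusted p-value under 0.05 with the block. That was 1 of 13 tested genes here and 0 of 11 in each other list, against 6.66% of all genes. Nr2f1 and Nr2f2, nuclear receptors abundant in mesenchyme, were at 333 ± 124 and 378 ± 128 CPM (SD, n = 3 each; log2 fold change 0.18, standard error 0.370) and at 556 ± 149.9 and 603 ± 120.1 CPM (SD, n = 3 each; log2 fold change 0.12, standard error 0.316). Cdx1 and Stra8, other known targets, had no counts in any library, which allows up to 3 counts per library.

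**Figure D5:**
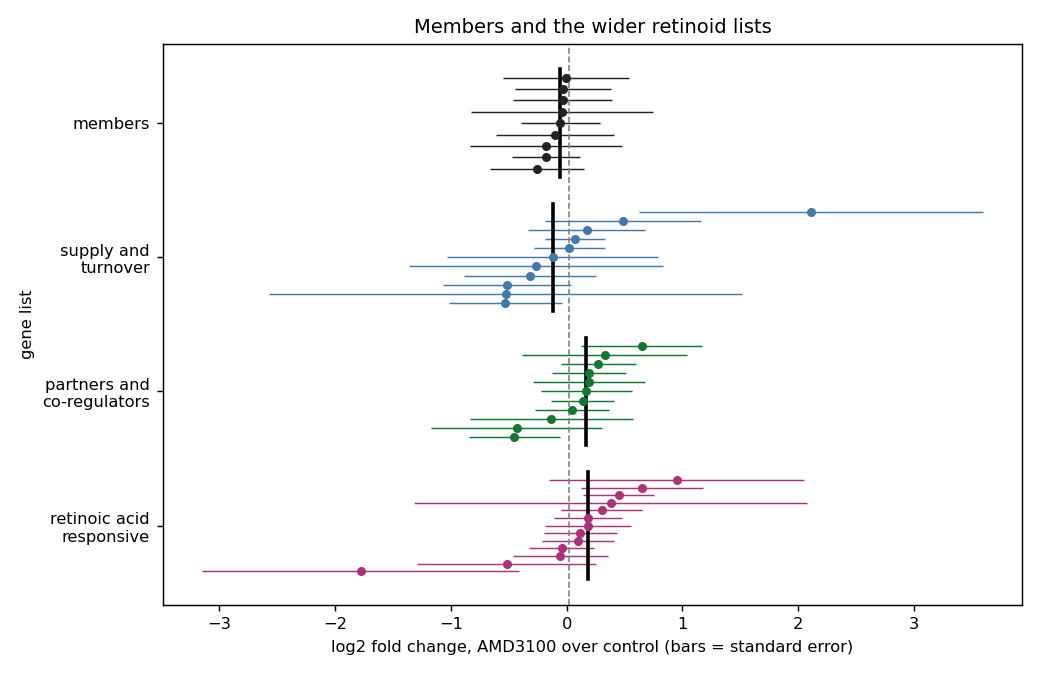
Log2 fold change of AMD3100 over control (x axis) with its standard error for the 9 retinoic acid genes and the tested genes of the 3 wider lists, with the median of each list (short black bars) and of all genes tested (dashed line, 0.021). The 9 genes lie between -0.26 and -0.0085, and the wide bars of the wider lists belong to genes with few reads, such as Ttr, Rdh12, Hoxb1 and Hoxd4.

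Likeness of patterns was measured by the mean absolute difference in log2 CPM over the 6 libraries, after each gene was centred on its own mean. Among the 9 genes, Crabp2 and Stra6 were the most alike (0.200), followed by Aldh1a2 with Cyp26b1 (0.226), and Cyp26b1 and Rarg the least (1.11). The genes nearest to Rarg among 13609 others were Rexo2 (0.0596), Larp1 (0.0691) and Cd177 (0.0762), where the median of all genes was 1.0. Those nearest to Crabp2 were Fkbp1a (0.0361), Tubgcp6 (0.0392) and Sarnp (0.0402), with a median of 0.544, and those nearest to Aldh1a2 were Blcap (0.0300), Glis2 (0.0562) and Gnpda1 (0.0706), with a median of 0.514. Of the axis that AMD3100 acts on, Cxcr4 was at 23.2 ± 11.1 and 16.3 ± 1.36 CPM (SD, n = 3 each, log2 fold change -0.50, standard error 0.442). Its ligand Cxcl12 was at 132 ± 37.2 and 100.4 ± 21.7 CPM (SD, n = 3 each, log2 fold change -0.39, standard error 0.319). With replicates 1 and 2 only, the log2 fold change was -0.0069 for Cxcl12 and -0.26 for Cxcr4. AMD3100 blocks the receptor protein, so these levels do not check the treatment.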

How the data were processed

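3′ mRNA libraries (QuantSeq, 50 bp single reads) of 3 control and 3 AMD3100-treated tubes were grouped by the sample labels. Each file deposited by the authors pairs gene symbols with whole, unnormalized read counts of 1 library. Bowtie2, edgeR and mm10 are named in the submitters' processing notes, and the counting tool and annotation are not given in the sources used here. Reads without molecular identifiers are not independent molecules. Of 23282 lines, 22 that repeated a symbol and its counts were left out. edgeR 4.0.16 in R 4.3.3 was used with TMM, filterByExpr, glmQLFit, glmQLFTest and Benjamini-Hochberg adjustment over 13610 genes, with condition as the only term. Standard errors and 95% intervals were derived from the F statistic of each coefficient. The code of the fit was checked on simulated data, which does not show how small a change these libraries could reveal.

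The 9 genes, the lists and the tests were chosen with earlier results of these data known. The genes named are these 9, genes of the lists with an unadjusted p under 0.05, up to 3 per list with the largest fold change and no overlap between groups, the 3 genes nearest in pattern to the most abundant gene of synthesis, binding and receptors, Cxcr4 and Cxcl12. Other genes of the lists were named after their values were seen. Deviations of same-numbered libraries from their group means correlated across genes at 0.284, 0.259 and 0.688 for replicates 1, 2 and 3. Control 2 with AMD3100 1 (0.307) and control 1 with AMD3100 2 (0.217) were similar to replicates 1 and 2. Deviations within a group cancel out, so a shared replicate 3 alone pulls replicates 1 and 2 of both groups together. These correlations are the source of the pairing used as a block, and they set only replicate 3 apart. Alternatives were DESeq2 1.42.0, upper quartile normalization, other filters, the replicate block, robust estimation, Rn45s left out, and libraries left out. Simulated reads came from the last 300 bases of each gene in GENCODE vM1 (NCBIM37), and gene positions from RefSeq on GRCm38.p6, the assembly called mm10. Some genes of the lists are not reported here by name.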

Additional observations from a re-analysis of the deposited data

How the results depend on the processing

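None of the 9 genes had an unadjusted p-value under 0.05 in any of the 15 alternative fits, where the lowest was 0.158 (Rarb). Aldh1a2 kept its direction in all 15. Leaving out 1 library at a time gave log2 fold changes of -0.44 to -0.062 for Aldh1a2, -0.36 to 0.25 for Aldh1a3, -0.29 to 0.26 for Stra6, -0.52 to 0.54 for Crabp1, -0.29 to 0.10 for Crabp2, -0.30 to 0.0082 for Cyp26b1, -0.27 to 0.39 for Rara, -0.76 to 0.34 for Rarb and -0.61 to 0.24 for Rarg, so that for 8 of the 9 genes the direction turned with 1 library. With replicates 1 and 2 only, it was 0.0029 for Stra6, 0.014 for Rara and 0.091 for Rarb, against values below 0 with all 6 libraries. Across all genes, 228 had an unadjusted p-value under 0.05, against 907 with the replicate block, 903 with replicate 3 as a batch (chosen after seeing the data) and 798 with replicates 1 and 2 only, and between 163 and 547 with each library left out (547 without control replicate 3 and 451 without AMD3100 replicate 3). The count at an adjusted p-value under 0.05 was 0 in edgeR, 3 with the replicate block, 7 with replicate 3 as a batch and 5 with DESeq2. The replicate block changed no call among the 9 genes. In the wider lists, 1 gene (Tgm2) had an unadjusted p-value under 0.05 with the block (6.66% of all genes) or replicate 3 as a batch, against 0 without them. With each library left out, 0 to 1 did: Hoxb1 without control replicate 1, Rarres1 without control replicate 2 and Ttr without control replicate 3, each with few reads. The cause of these moves was not tested. Depth limits Aldh1a3 most, with 239 counts in all.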

Other observations

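Of the 10 epithelial markers, Epcam, Krt5, Krt8, Krt14, Sox9 and Sox10 were lower in both replicate 3 libraries than in the 4 others, and Cdh1, Krt15, Krt18 and Krt19 overlapped. Sox10, a transcription factor of salivary progenitors, was at 89.5, 114 and 22.1 CPM in control and 109.6, 91.9 and 16.3 CPM in AMD3100 replicates 1, 2 and 3. Krt15, a keratin of basal cells, was at 1042, 1012 and 888 CPM in control and 1367, 1016 and 2472 CPM in AMD3100 replicates 1, 2 and 3, lowest in control replicate 3 and highest in AMD3100 replicate 3. Krt18, a keratin of luminal cells, was at 94.03, 74.6 and 54.05 CPM in control and 75.1, 91.1 and 90.01 CPM in AMD3100 replicates 1, 2 and 3. These 3 were chosen after their values were seen.

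The share of Rn45s, the ribosomal RNA precursor, was 32.4% in control replicate 1 and 32.5% in AMD3100 replicate 2, the libraries that were also alike in the shares of Crabp1 and Aldh1a2. It was 27.5% and 16.2% in control replicate 2 and AMD3100 replicate 1.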
